A study of Homo sapiens with 9 samples.

Results

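The prostaglandin E receptors and the enzymes that make and remove prostaglandin E2 were followed in colon cancer cells with and without the protein BASP1. The 10 genes, of 63677 in the count files, were PTGER1, PTGER2, PTGER3, PTGER4, PTGS1, PTGS2, PTGES, PTGES2, PTGES3 and HPGD. The group was chosen by the rise of PTGER2 in SW480-B cells over SW480 cells, so the members' values in that comparison are a description and carry no test. SW480 is a human colon adenocarcinoma line with a nearly silent BASP1 gene. SW480-B cells carry pcDNA3-BASP1, driven by a cytomegalovirus promoter, and were expanded from a single cell clone after selection with geneticin. SW480-gRNA-B-all cells, called the CRISPRa line below, express their own BASP1 gene through the MS2-P65-HSF1 and dCas9-VP64-GFP activators and pooled sgRNAs against the BASP1 promoter. They passed through hygromycin B and puromycin selection, with single cell cloning before the sgRNAs were added. All lines grew in Leibovitz L-15 medium with 10% FBS. No line with an empty vector or without sgRNAs was analysed here, so BASP1, the clone and the way of gene transfer cannot be told apart. Each line gave 3 poly(A) RNA libraries (n = 3), 9 in all, with 1 batch label for all of them. The labels also give BASP1 activation as the treatment of all 9 libraries, the parental ones included, so the groups follow the titles, which match the genotype labels (WT, ectopic BASP1 and CRISPRa BASP1).

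Prostaglandin E2 is made from arachidonic acid, which phospholipases A2 release from membranes. The cyclooxygenases PTGS1 and PTGS2 turn arachidonic acid into prostaglandin H2, and the prostaglandin E synthases turn this into prostaglandin E2. The product leaves the cell and binds receptors of the G protein-coupled type: PTGER2 and PTGER4 raise cAMP, PTGER3 mainly lowers it, and PTGER1 acts through calcium. HPGD, 15-hydroxyprostaglandin dehydrogenase, inactivates the product after its uptake. In the colon this pathway is known for its part in tumor growth, where PTGS2 is often high and HPGD often low.

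The promoters of PTGER2, HPGD and PTGS1 are shown because the group was chosen on PTGER2 and because HPGD and PTGS1 were called between the BASP1-expressing lines. The RefSeq promoter table (GRCh38.p14) held 9 of the 10 members, PTGER3 being the missing entry. The 250 bases before the first listed start of each gene are printed on the strand of the gene, 5′ to 3′. The windows are chr14:52314062-52314311 (plus strand) for PTGER2, chr4:174522489-174522738 (minus strand) for HPGD and chr9:122370283-122370532 (plus strand) for PTGS1. Capitals mark matches, on either strand, to 8 searched motifs.
PTGER2: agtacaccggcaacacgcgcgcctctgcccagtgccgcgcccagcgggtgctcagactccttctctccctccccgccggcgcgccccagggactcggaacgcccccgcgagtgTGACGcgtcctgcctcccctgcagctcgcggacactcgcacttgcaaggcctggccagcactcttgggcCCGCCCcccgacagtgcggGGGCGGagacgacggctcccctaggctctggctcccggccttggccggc
HPGD: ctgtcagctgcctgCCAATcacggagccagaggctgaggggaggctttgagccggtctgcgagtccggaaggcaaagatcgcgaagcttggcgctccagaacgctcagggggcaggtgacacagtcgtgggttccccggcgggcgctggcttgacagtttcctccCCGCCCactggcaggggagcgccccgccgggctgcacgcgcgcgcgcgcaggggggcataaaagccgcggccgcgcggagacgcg
PTGS1: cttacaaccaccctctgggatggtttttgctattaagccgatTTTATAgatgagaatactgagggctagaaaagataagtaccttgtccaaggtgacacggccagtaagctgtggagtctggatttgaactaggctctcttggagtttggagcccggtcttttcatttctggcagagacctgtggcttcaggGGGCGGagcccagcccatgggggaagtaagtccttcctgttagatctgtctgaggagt
The GC box GGGCGG, present in 42.3% of the 27305 promoter windows of the table, occurred 2 times before PTGER2 and 1 time each before HPGD and PTGS1. PTGER2 also held the CRE half-site TGACG, found in 21.7% of all windows. HPGD held a CCAAT box (33% of all windows) and PTGS1 a TATAAA box (11.1%), here on the opposite strand. The E-box CACGTG (6.49% of all windows), the full CRE TGACGTCA (1.77%), the TCF/LEF motif CTTTGAT (2.28%) and the AP-1 motif TGACTCA (4.16%) were absent from the 3 windows. The CRE half-site lies inside the full CRE, and the other motifs do not contain each other. The windows of PTGER2 and HPGD had 74% and 70.8% G and C bases, against 49.6% for PTGS1.

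Levels are given as CPM, counts scaled to library size by the TMM method of edgeR. The libraries held 25238831 to 29355669 counts on genes, so a gene at 0 is limited to 3 counts, or 0.0983 to 0.115 CPM, a limit that covers counting error only. BASP1, the targeted gene, had 11.3, 8.09 and 0.688 CPM in the SW480 libraries. In SW480-B it reached 266, 269.9 and 255 CPM, and in the CRISPRa line 166, 308 and 305 CPM. Both BASP1 lines were above every SW480 library. Its log2 fold change between the CRISPRa line and SW480 was 5.21 (standard error 0.92, adjusted p = 0.025, by the quasi-likelihood test of edgeR, adjusted after Benjamini and Hochberg), and this call was kept in 2 of the 6 fits that left out 1 library (without replicate 1 or 3 of SW480), with adjusted p up to 0.12 without replicate 2 of SW480. The BASP1 call was also lost with replicates 2 and 3 of the CRISPRa line summed (adjusted p = 0.083, edgeR). These replicates stood closer to each other than any other pair. Of 14015 genes, 0.421% were more than 2-fold apart between them, and 8.36% to 27.8% in the other pairs within a line, although their counts differed by more than sampling noise (chi-square per degree of freedom 3.13). Colon epithelial markers were present in every line, with 7 of 10 at a mean of 1 CPM or more and a summed level of 6322 to 11420 CPM per library. CDX2, an intestinal transcription factor, was lower in the CRISPRa line than in SW480-B (log2 fold change -4.12, adjusted p = 0.00099, edgeR) and than in SW480 (-3.28, adjusted p = 0.0090, edgeR). VIL1, which bundles actin in the brush border, was lower than in SW480 in both the CRISPRa line (-4.44, adjusted p = 0.019, edgeR) and SW480-B (-2.94, adjusted p = 0.025, edgeR), with a mean of 245 CPM in SW480, 32.1 in SW480-B and 11.6 in the CRISPRa line. Of the fibroblast markers, LUM was called lower than in SW480 in both lines, from 0.978 to 6.16 CPM to at most 0.0358 CPM, and COL1A1 higher in the CRISPRa line than in SW480 (1.21, adjusted p = 0.036, edgeR). Of these calls, only that of CDX2 against SW480-B was kept without each library in turn. The summed markers of fibroblasts (7), immune cells (7), endothelium (3) and mast cells (4) stayed at or below 11.1, 6.04, 4.40 and 0.833 CPM. The part of these marker levels in the results below was not tested.

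PTGER2, the cAMP-raising receptor on which the group was chosen, lies at chr14:52781023-52795316 (GRCh37, plus strand). It had 0.0983, 0.417 and 0.326 CPM in SW480 (3, 12 and 9 counts). It had 5.73, 8.06 and 1.91 CPM in SW480-B (149, 225 and 53 counts) and 0.304, 0.271 and 0.271 CPM in the CRISPRa line (9, 8 and 8 counts). The 3 SW480-B libraries lay above all others, replicate 3 being the lowest of them, and the other two lines overlapped. As a description, PTGER2 was 18.6-fold higher in SW480-B than in SW480 (log2 fold change 4.22, standard error 0.73) and 18.4-fold lower in the CRISPRa line than in SW480-B (log2 fold change -4.20, standard error 0.58). These comparisons share the SW480-B libraries, and in bulk RNA fewer cells with the transcript and less of it per cell cannot be told apart. Without any one library, the log2 fold change stayed between 3.78 and 4.61 in the first and between -4.60 and -3.76 in the second. Between the CRISPRa line and SW480, whose BASP1 levels differed by 5.21 on the log2 scale, PTGER2 had 25 and 24 counts in all. The gene was too low there for the filter of the test. The ratio of these summed counts was 1.02, with a 95% counting interval of 0.56 to 1.87 that does not cover the spread between libraries.

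The other receptors were low in all lines. PTGER4, the second cAMP-raising receptor, had 1.21, 0.625 and 0.362 CPM in SW480. It had 0.115, 0.502 and 0.791 CPM in SW480-B and 0.338, 0.305 and 0.102 CPM in the CRISPRa line. All CRISPRa libraries were below all SW480 libraries, whereas SW480-B overlapped both. The log2 fold change of PTGER4 in the CRISPRa line was -1.60 against SW480 (standard error 0.64, adjusted p = 0.16, edgeR) and -0.91 against SW480-B (standard error 0.71, adjusted p = 0.47, edgeR), and neither passed. PTGER1, the calcium-linked receptor, had 11, 2 and 0 counts in SW480, 9, 4 and 6 counts in SW480-B, and 9, 6 and 3 counts in the CRISPRa line. The lines overlapped, and PTGER1 was below the filter of every comparison. PTGER3, the mainly cAMP-lowering receptor, had 6, 1 and 0 counts in SW480, 3, 1 and 2 counts in SW480-B, and 0, 0 and 1 counts in the CRISPRa line. It was also below every filter, and a difference between the lines was not detectable at this depth.

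Compared per length, as CPM per kilobase of annotated exon, the receptors summed to 0.656, 0.398 and 0.234 in SW480, 2.61, 3.52 and 1.16 in SW480-B, and 0.434, 0.340 and 0.214 in the CRISPRa line. PTGER2 made up 89.0%, 93.0% and 66.9% of this sum in SW480-B. In SW480 its share was 6.08%, 42.5% and 56.4%, from 57, 33 and 19 receptor counts in all, and in the CRISPRa line 28.4%, 32.4% and 51.4%, from 28, 23 and 15 counts. In SW480 replicate 1, the library with the lowest PTGER2 share, PTGER4 accounted for 52.1%. These shares follow from the choice of PTGER2 and are a description.

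**Figure D1:**
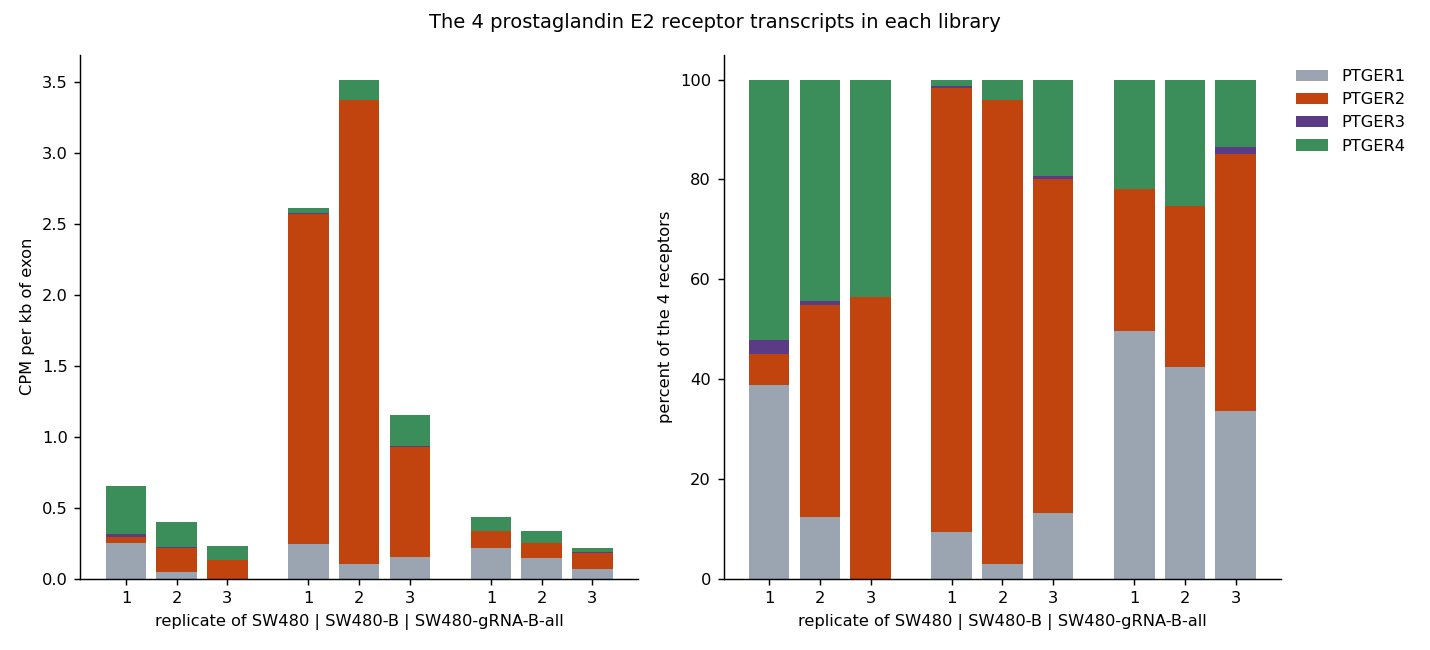
The 4 prostaglandin E2 receptor transcripts in each of the 9 libraries, as stacked CPM per kb of exon (left) and as percent of their sum (right). Each bar is 1 library, in the order replicate 1 to 3 of SW480, SW480-B and the CRISPRa line. PTGER2 fills 66.9% to 93.0% of the SW480-B bars, and the bars of the other lines stay at or below 0.656 CPM per kb.

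The synthesis enzymes spanned a wide range of levels. Per kilobase of exon, PTGES3 was the highest member, with a mean of 182 ± 64.4 CPM per kb in SW480, 157 ± 54.9 in SW480-B and 191 ± 37.8 in the CRISPRa line (SD, n = 3). PTGES2 followed with 9.10 to 15.04, 9.69 to 16.4 and 18.3 to 21.1 CPM per kb in the same lines. HPGD came next with 1.74 to 10.2, 10.5 to 13.9 and 2.04 to 2.88 CPM per kb. In SW480-B the ranges of PTGES2 and HPGD overlapped, as did those in SW480, so their order was not beyond the spread there. PTGES, PTGS1 and PTGS2 had means at or below 1.06, 0.232 and 0.135 CPM per kb in every line.

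PTGS1, the constitutive cyclooxygenase at chr9:125132809-125157982 (GRCh37, plus strand), had 0.983, 1.18 and 0.326 CPM in SW480 and 0.423, 0.358 and 0.431 CPM in SW480-B. It had 1.66, 1.49 and 0.882 CPM in the CRISPRa line. All CRISPRa libraries were above all SW480-B libraries, and SW480 overlapped both. PTGS1 was 3.28-fold higher in the CRISPRa line than in SW480-B (log2 fold change 1.72, standard error 0.41, adjusted p = 0.036, edgeR). The call rested on 119 and 33 counts in all. It was lost without any one of the 6 libraries (log2 fold change 1.54 to 1.96, edgeR adjusted p 0.056 to 0.17, the latter without replicate 2 of the CRISPRa line), and with replicates 2 and 3 of the CRISPRa line summed (1.81, adjusted p = 0.10). Against SW480 the log2 difference of PTGS1 was 0.65 (standard error 0.54, adjusted p = 0.46, edgeR) and did not pass.

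PTGS2, the inducible cyclooxygenase, had 5, 20 and 2 counts in SW480, 16, 44 and 1 counts in SW480-B, and 1, 1 and 0 counts in the CRISPRa line. The SW480 and SW480-B libraries overlapped, and replicate 2 was the highest library in both. Each CRISPRa library had the same count as the lowest SW480-B library or fewer. PTGS2 was below the filter in both comparisons with the CRISPRa line. The ratio of summed counts was 33.0 for SW480-B over the CRISPRa line (95% counting interval 8.76 to 279) and 13.7 for SW480 over the CRISPRa line (3.46 to 119). With no filter on low counts, PTGS2 passed against SW480-B (adjusted p = 0.032, edgeR) and not against SW480 (adjusted p = 0.10, edgeR). DESeq2 gave adjusted p = 0.0076 and 0.092 for these comparisons. The gene PACERR, antisense to PTGS2 and sharing 219 exon bases with it, had 0 to 2 counts per library.

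The microsomal synthase PTGES, which is often induced together with PTGS2, had 0.131, 1.15 and 1.38 CPM in SW480, 1.54, 1.79 and 2.66 CPM in SW480-B, and 1.15, 2.07 and 1.63 CPM in the CRISPRa line. SW480 replicate 1 was the low library. The log2 fold change in the CRISPRa line was 0.84 against SW480 (standard error 0.72, adjusted p = 0.47, edgeR) and -0.31 against SW480-B (standard error 0.37, adjusted p = 0.65, edgeR), and neither passed.

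PTGES2, the membrane-associated synthase, had 55.3, 72.1 and 91.5 CPM in SW480, 58.9, 97.1 and 100.006 CPM in SW480-B, and 111, 119.8 and 128 CPM in the CRISPRa line. The CRISPRa libraries were above all libraries of the other lines. PTGES2 gave log2 fold changes of 0.68 against SW480 (standard error 0.19, 95% interval 0.22 to 1.14, adjusted p = 0.077, edgeR) and 0.48 against SW480-B (standard error 0.21, adjusted p = 0.20, edgeR), and neither passed. PTGES3, the cytosolic synthase that also serves HSP90 as the co-chaperone p23, had 389 to 826 CPM in SW480, 332 to 702 CPM in SW480-B and 502 to 739 CPM in the CRISPRa line. Replicate 1 was the lowest library of each line. Its log2 fold change in the CRISPRa line was 0.03 against SW480 (95% interval -0.67 to 0.73, adjusted p = 0.95, edgeR) and 0.28 against SW480-B (95% interval -0.37 to 0.93, adjusted p = 0.59, edgeR). The PTGES3 pseudogenes had at most 57 counts per library, against 8648 or more for PTGES3.

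HPGD, which inactivates prostaglandin E2, differed most clearly between the BASP1-expressing lines. The gene lies at chr4:175411326-175444305 (GRCh37, minus strand). It had 69.8, 58.2 and 77.1 CPM in SW480-B and 11.3, 15.9 and 14.9 CPM in the CRISPRa line, with 9.63, 34.3 and 56.7 CPM in SW480. Every SW480-B library was above every library of the other lines, and the SW480 libraries spanned a 5.88-fold range that included the CRISPRa values. HPGD was 4.91-fold lower in the CRISPRa line than in SW480-B (log2 fold change -2.29, standard error 0.20, 95% interval -2.76 to -1.83, adjusted p = 0.0011, edgeR). The call was kept without each library in turn (log2 fold change -2.40 to -2.15, adjusted p at most 0.0099). Against SW480 HPGD gave a log2 fold change of -1.29 (with a standard error of 0.55, adjusted p = 0.18, edgeR) and did not pass. Without replicate 1 of SW480, the library with the low value, it was -1.70 (adjusted p = 0.022, edgeR) and passed, and without replicate 3, the library with the high value, it was -0.67 (adjusted p = 0.37, edgeR). As a description, HPGD was 2.07-fold higher in SW480-B than in SW480 (log2 fold change 1.05, from 0.61 without replicate 1 to 1.66 without replicate 3 of SW480). An antisense gene that shares 314 exon bases with HPGD, ENSG00000251584, had 0 to 7 counts per library.

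**Figure D2:**
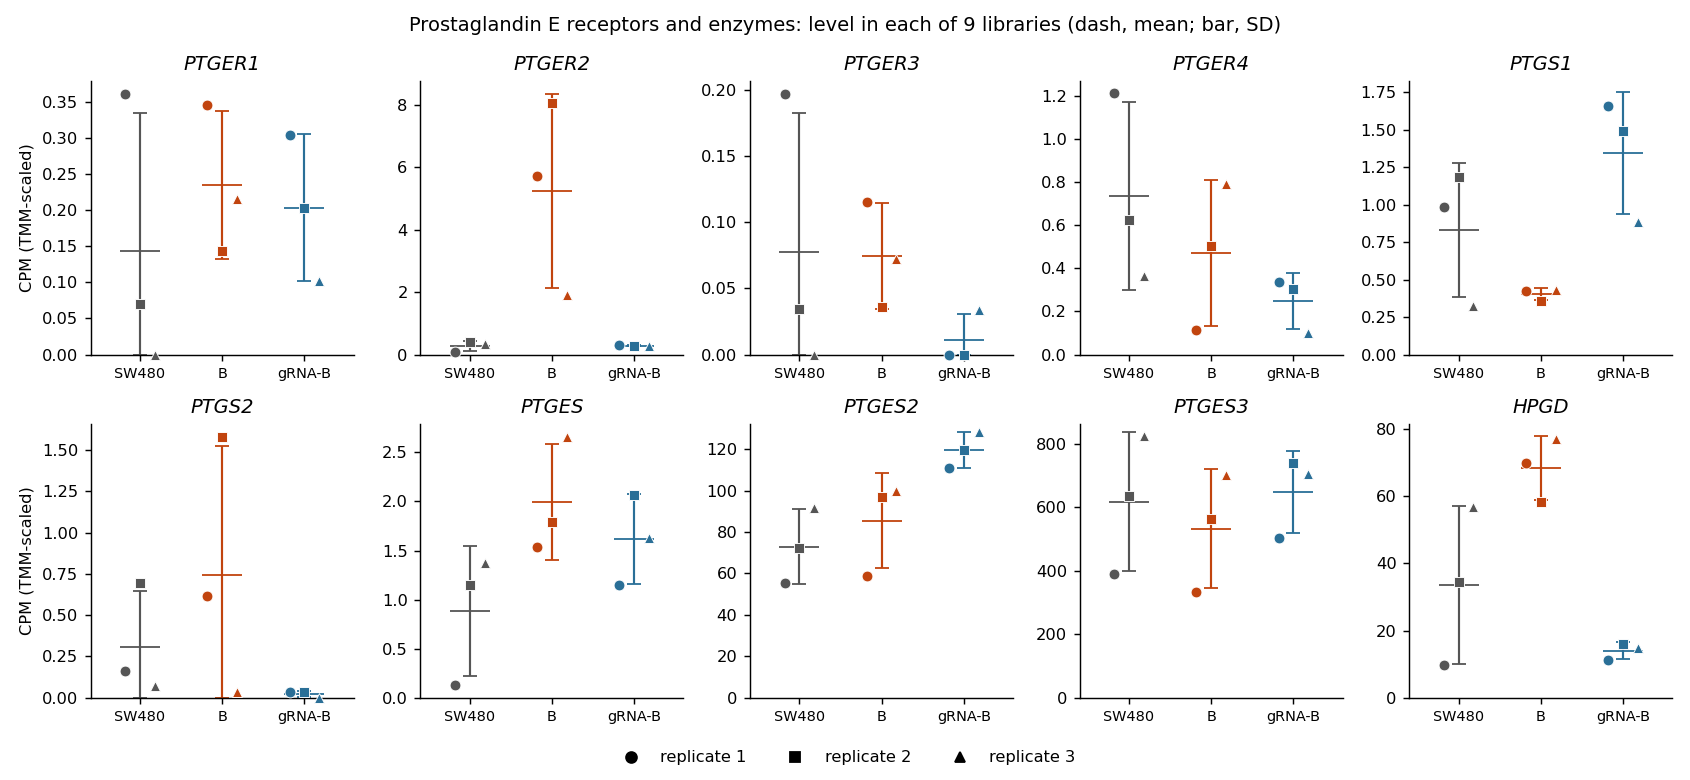
CPM of the 10 members in each library, 1 panel per gene on a linear axis from 0, with SW480-B marked B and SW480-gRNA-B-all marked gRNA-B. Points are libraries (circle, square and triangle for replicates 1, 2 and 3), dashes are means of 3 and bars are SDs, cut at 0. PTGER2 and HPGD are highest in SW480-B, with 1.91 to 8.06 and 58.2 to 77.1 CPM, and PTGES2 is highest in the CRISPRa line, with 111 to 128 CPM.

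Calls required an adjusted p below 0.05 together with a change above 2-fold. Between the CRISPRa line and SW480, 6 members were high enough to be tested and 0 were called in either direction by edgeR, against 6.55% of 16100 genes (1.89% in the higher and 4.66% in the lower direction). At an unadjusted p under 0.05 (edgeR), 2 of the 6 differed (PTGER4 and PTGES2), beside 4572 of all 16100 genes tested. DESeq2 called 0 members, and 2380 genes in all. Between the CRISPRa line and SW480-B, 7 members were tested. PTGS1 was called higher, and HPGD lower. PTGER2 was lower too, but it was chosen on the same SW480-B libraries and is not counted as a result. Of 15846 genes, 6.68% were called (2.31% higher and 4.37% lower). For SW480-B against SW480, 8 members were tested and 1, PTGER2, was called, higher, against 1.34% of 16106 genes (0.0931% higher and 1.25% lower). This is the comparison by which the group was chosen, and nothing is read from the count. The median log2 fold change of the tested members other than PTGER2 was 0.34, -0.02 and 0.23 in the 3 comparisons, beside -0.05, -0.0044 and -0.0039 over all genes tested. With PTGER2 the last 2 medians were -0.31 and 0.64. Since each pair of comparisons shares the libraries of 1 line, their values do not stand independently.

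**Figure D3:**
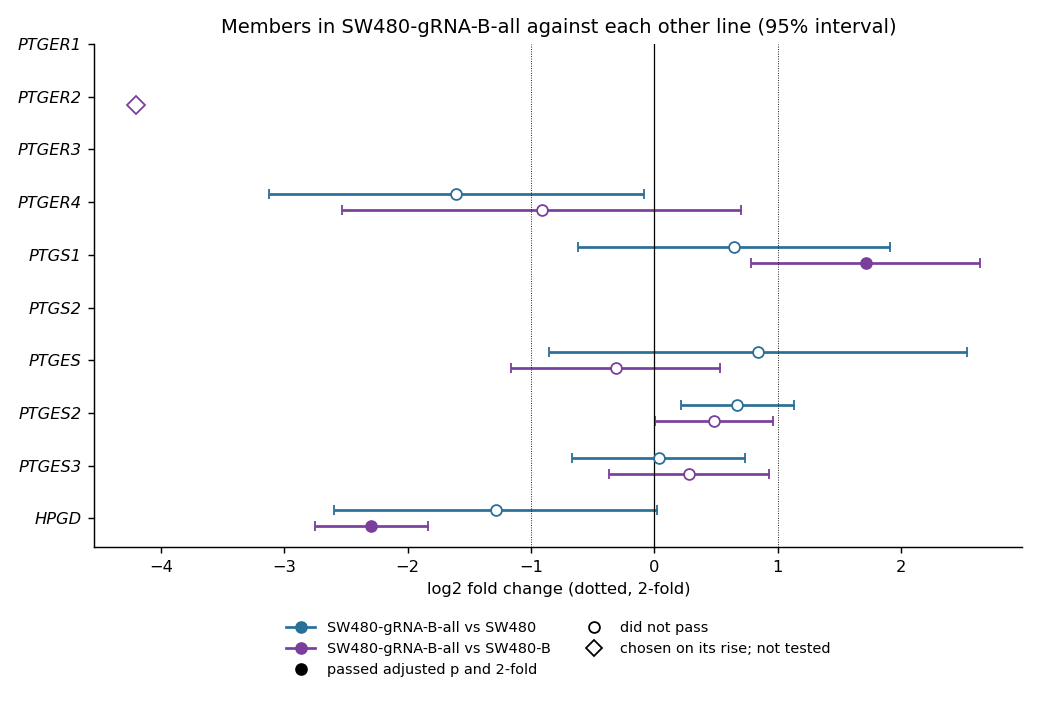
Log2 fold change of each tested member in the CRISPRa line against SW480 (blue) and against SW480-B (purple), with 95% intervals. Filled points passed the adjusted p and the 2-fold limit, open circles did not, and the diamond marks PTGER2, which was chosen on its rise and carries no test. HPGD (-2.29) and PTGS1 (1.72) against SW480-B are the filled points; members without a point were below the count filter.

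The genes that supply the pathway and carry its signal were grouped by role. Of the pathway genes outside the members, 11 of 83 tested (13.3%) were called by edgeR between the CRISPRa line and SW480, 8 of 81 (9.88%) between the CRISPRa line and SW480-B, and 1 of 84 (1.19%) between SW480-B and SW480, beside 6.55%, 6.68% and 1.34% of all genes. Among 15 phospholipases A2 and arachidonate-releasing enzymes, 8 were tested. Against SW480, MGLL, monoglyceride lipase, was called higher and PLA2G4A, the cytosolic phospholipase A2, lower in the CRISPRa line. PLA2G4A had 35, 63 and 32 counts in SW480, 27, 37 and 15 counts in SW480-B, and 2, 1 and 0 counts in the CRISPRa line. The CRISPRa libraries were below all others. The ratio of summed counts of PLA2G4A was 44.1 for SW480 over the CRISPRa line (95% counting interval 14.8 to 217, edgeR adjusted p = 0.014) and 28.5 for SW480-B over the CRISPRa line (9.41 to 141, edgeR adjusted p = 0.0093). The call against SW480-B was kept without each library in turn, whereas that against SW480 was lost without replicate 2 of SW480 or any CRISPRa library (adjusted p up to 0.083). MGLL had 4.56 ± 2.69 CPM in SW480 and 25.4 ± 6.82 CPM in the CRISPRa line (SD, n = 3, log2 fold change 2.45, adjusted p = 0.037, edgeR). PLA2G4A was the single list member called against SW480-B.

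Of 9 other prostanoid synthases and reductases, 6 were tested. PTGDS, a prostaglandin D synthase, was lower in the CRISPRa line than in SW480 (log2 fold change -3.97, adjusted p = 0.016, edgeR) and than in SW480-B (-3.26, adjusted p = 0.019, edgeR). It had 1.85 to 5.69 CPM in SW480, 1.04 to 4.01 CPM in SW480-B and 0.170 to 0.271 CPM in the CRISPRa line, which lay below both other lines, and these overlapped. The aldo-keto reductase AKR1C3 was called lower against SW480 (-6.69, from -7.18 to -4.88 without 1 library, adjusted p = 0.030, edgeR). Its SW480 libraries had 40.8, 7.19 and 2.97 CPM, and no library of the BASP1 lines exceeded 0.324 CPM. The median log2 fold change of this list was -1.05 against SW480, beside -0.05 over all genes, and -0.25 against SW480-B. In the list of prostaglandin transport and breakdown (11 genes, 8 tested), the transporter SLCO3A1 and the hydroxylase CYP4F3 were called lower in the CRISPRa line than in SW480 (log2 fold changes -3.11 and -6.44, adjusted p = 0.016 and, just below the limit, 0.050, edgeR). The value of CYP4F3 rested on 328, 111 and 14 counts in SW480 and 5, 0 and 0 in the CRISPRa line, and ranged from -10.24 to -5.18 without 1 library. SLCO3A1 had 43.96 to 128 CPM in SW480, 17.0 to 21.7 CPM in SW480-B and 7.90 to 13.1 CPM in the CRISPRa line. Against SW480-B, 7 genes of this list were tested and 0 were called, with 5 at an unadjusted p under 0.05 and 0 called by DESeq2. Over all genes tested in this comparison, 3873 of 15846 were under 0.05 unadjusted (edgeR). SLCO3A1 was also called lower in SW480-B than in SW480 (log2 fold change -2.14, adjusted p = 0.044, edgeR), the only gene of the pathway lists called by edgeR in that comparison. This call was lost with the replicate number as a block (edgeR adjusted p = 0.056), and without replicate 2 of SW480 or any SW480-B library (adjusted p up to 0.26). DESeq2 called more genes of the pathway lists in SW480-B against SW480, as it did over all genes (1096, against 216 by edgeR). These were 1 higher and 1 lower of the other synthases and reductases, and 2 lower of transport and breakdown. In the lists described below, it called 1 higher of the leukotriene branch, 1 higher and 1 lower of the G protein list, and 3 lower of the cAMP list.

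Downstream of the receptors, 23 of 28 G protein, adenylyl cyclase, kinase and arrestin genes were tested. Against SW480, the adenylyl cyclase ADCY7 was called higher in the CRISPRa line (log2 fold change 2.15, adjusted p = 0.038, edgeR). GNAI1, an inhibitory G protein subunit, and RAPGEF4, a cAMP-activated exchange factor, were called lower (-7.07 and -1.51, adjusted p = 0.034 and 0.028, edgeR). GNAI1 had 182, 86.3 and 32.6 CPM in SW480, 13.5, 19.1 and 16.4 CPM in SW480-B, and 2.20, 0.102 and 0 CPM in the CRISPRa line (65, 3 and 0 counts), 3 ranges that did not overlap. Its log2 fold change against SW480 ranged from -10.88 to -6.27 without 1 library. Against SW480-B, GNAI1, GRK6 and RAPGEF4 were called lower (-4.40, -1.28 and -1.89, adjusted p = 0.043, 0.034 and 0.0075, edgeR) and the protein kinase A subunit PRKAR2B higher (2.05, adjusted p = 0.024, edgeR). GRK6 is a receptor kinase. DESeq2 did not call GNAI1 there (adjusted p = 0.085). Of these 4 calls, that of RAPGEF4 was kept without each library in turn. The call of GNAI1 was kept in 1 of 6 such fits, that without replicate 1 of the CRISPRa line (log2 fold change -8.20 to -3.80 over the 6 fits), and those of GRK6 and PRKAR2B in 2 of 6, being lost without replicate 2 or 3 of the CRISPRa line and without replicate 1 or 2 of SW480-B.

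The list of the cAMP and CREB response held 20 genes, of which 19 were tested against SW480 and 17 against SW480-B. Besides genes that respond to cAMP, it includes CREB1 itself and its coactivators CRTC1, CRTC2 and CRTC3. The cAMP phosphodiesterase PDE4D had 201, 307 and 389 CPM in SW480 and 411, 457.1 and 394 CPM in SW480-B. It had 36.0, 37.6 and 39.0 CPM in the CRISPRa line, far below all other libraries. Against SW480 its log2 difference of -3.03 (standard error 0.25, adjusted p = 0.0054, edgeR) passed, as did that of -3.50 against SW480-B (standard error 0.17, adjusted p = 0.00012, edgeR). The latter call was kept without each library in turn, and the former was lost without replicate 2 of SW480 alone (edgeR adjusted p = 0.050, just above the limit). PDE4B was also called lower against SW480 (-5.42, adjusted p = 0.020, edgeR), with 2.29, 11.6 and 2.32 CPM in SW480 and at most 0.288 CPM in the BASP1 lines. FOS, an immediate early transcription factor gene, had 36.0, 48.8 and 53.9 CPM in SW480-B and 13.7, 14.6 and 15.1 CPM in the CRISPRa line (log2 fold change -1.68, standard error 0.19, adjusted p = 0.0028, edgeR), a call kept without each library in turn. The SW480 libraries of FOS, with 11.8, 22.1 and 58.1 CPM, overlapped both. The median of this list was -0.25 against SW480 and -0.07 against SW480-B, beside -0.05 and -0.0044 over all genes. The genes of this list called lower were PDE4D, PDE4B and FOS, so the counts describe these genes and not the list as a whole. Whether they share a cause was not tested.

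The remaining lists had 0 calls by edgeR in either comparison of the CRISPRa line. Against SW480, LTA4H of the leukotriene branch and PPP5C of the HSP90 list passed the adjusted p but not the 2-fold limit. Their log2 fold changes were -0.98 and -0.59 (adjusted p = 0.044 and 0.041, edgeR). The list of receptors for other prostanoids held 6 genes, including PTGFRN, which regulates a receptor and is not one itself. Of these, 2 (TBXA2R and PTGFRN) were tested against SW480 (1 at an unadjusted p under 0.05, 1 called by DESeq2) and 3 against SW480-B (2 and 0). Of 14 genes of the leukotriene and lipoxygenase branch, 5 were tested in each comparison, with 3 at an unadjusted p under 0.05 and 2 called by DESeq2 against SW480, and 0 and 0 against SW480-B. The HSP90 list held HSP90AA1 and HSP90AB1 themselves beside co-chaperones. All 12 of its genes were tested, with 2 and 3 at an unadjusted p under 0.05 against SW480 and SW480-B and 0 called by DESeq2. Over all genes tested, 4572 of 16100 against SW480 and 3873 of 15846 against SW480-B were under 0.05 unadjusted (edgeR). DESeq2 called 2380 and 1577 genes in all in these comparisons. Of the 11 calls between the CRISPRa line and SW480, 0 were kept in all 6 fits that left out 1 library. Apart from PDE4D, each was lost without replicate 2 of SW480 and without replicate 2 or 3 of the CRISPRa line (adjusted p up to 0.16 over the 11 genes). Of the 8 called between the CRISPRa line and SW480-B, 4 were kept in all 6 fits, PLA2G4A, RAPGEF4, FOS and PDE4D. The call of PTGDS there was lost without replicate 2 or 3 of the CRISPRa line (adjusted p up to 0.085). With replicates 2 and 3 of the CRISPRa line summed, 1 of the 11 calls against SW480 was kept, PDE4D (adjusted p = 0.039, edgeR). Of the 8 against SW480-B, 4 were kept with this sum, again PLA2G4A, RAPGEF4, FOS and PDE4D.

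**Figure D4:**
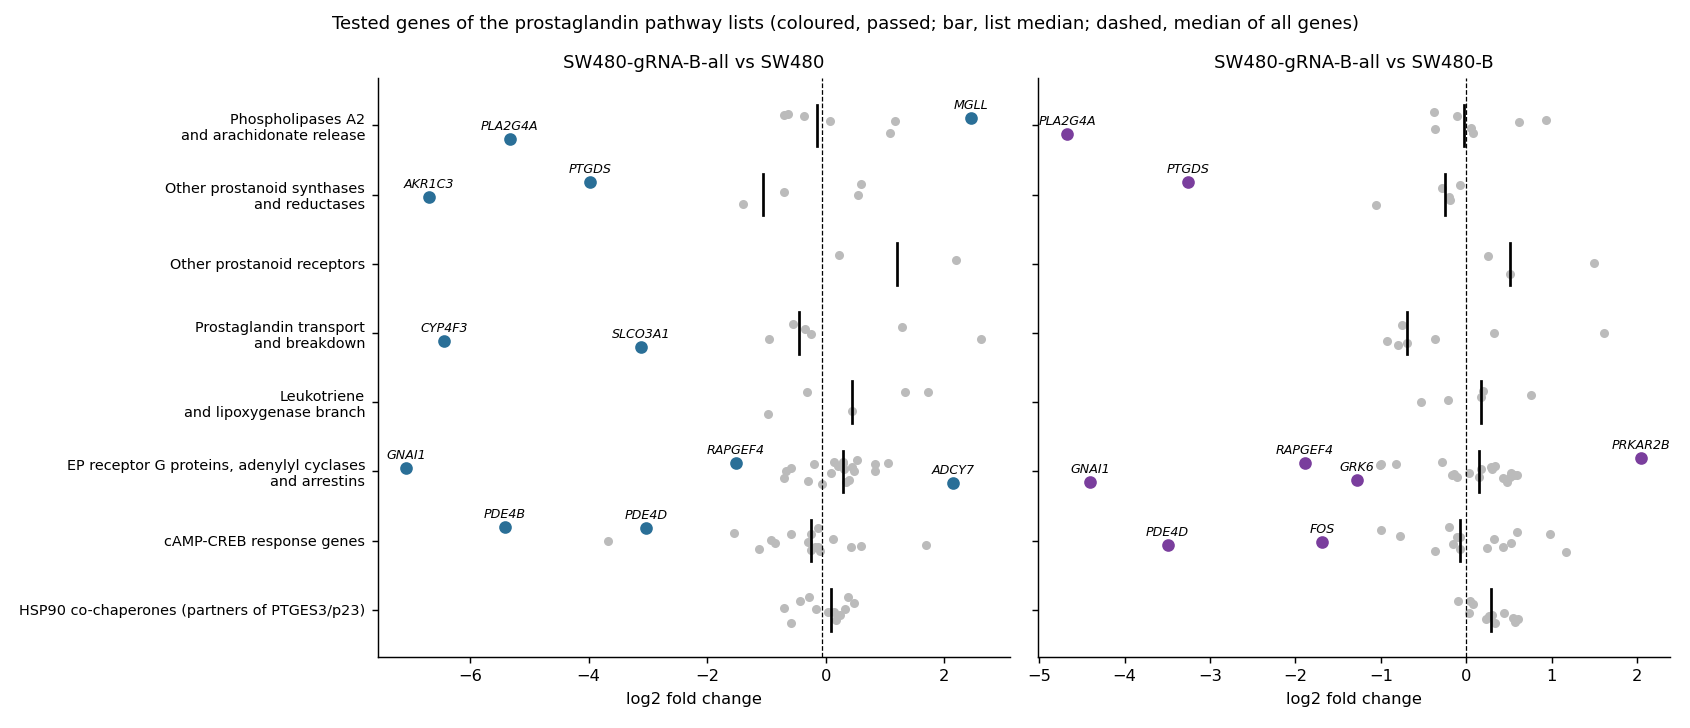
Log2 fold changes of the tested genes of each pathway list in the CRISPRa line against SW480 (left) and SW480-B (right). Each point is 1 gene, coloured and named where it passed the adjusted p and the 2-fold limit; vertical bars are list medians and the dashed line is the median of all genes. PDE4D stands at -3.03 and -3.50, and PLA2G4A and PTGDS are low in both panels.

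By Pearson correlation of log2(CPM + 1) over the 9 libraries, among 14440 genes with a mean of at least 1 CPM in a line, the genes most like PTGER2 were SPTLC3 (r = 0.980), IL2RB (0.979), ELF1 (0.971), TMEM186 (0.970) and SEC61A1 (0.970). SPTLC3, a subunit of serine palmitoyltransferase, had 0.797 to 1.28 CPM in SW480, 4.21 to 10.1 CPM in SW480-B and 0.575 to 0.780 CPM in the CRISPRa line. IL2RB, the interleukin 2 receptor beta chain, had 0.229 to 0.652, 1.11 to 4.96 and 0.271 to 0.305 CPM in the same lines. SEC61A1, the channel subunit of the endoplasmic reticulum translocon, was 685 to 1419 CPM in SW480-B and 415 to 642 CPM in SW480. In SPTLC3, IL2RB and SEC61A1, as in PTGER2, replicate 3 was the lowest SW480-B library. The 9 points fall into 3 lines and share their libraries, so these values are a description.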

How the data were processed

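Poly(A) RNA of the 3 lines was sequenced by the authors from stranded libraries on an Illumina NovaSeq instrument and aligned to GRCh37 with the Ensembl annotation. The authors deposited whole-number counts per gene for each library, without normalization. The file headers name STAR, and the counting program and its strand setting are not given in the sources used here. Counts on no gene (5.22% to 9.93%) or on more than 1 gene (3.09% to 3.44%) were left out, and the metrics files were not used. Symbols were matched for 55665 of 63677 identifiers. For 156 of the 157 listed genes an identifier was found, PECAM1 being the exception.

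Each pair of lines was tested over its own 6 libraries with edgeR 4.0.16 in R 4.3.3. Low genes were removed by filterByExpr (minimum count 10, minimum total 15). TMM factors and the robust quasi-likelihood test followed, with Benjamini-Hochberg adjustment over all genes tested. Standard errors are the log2 fold change over the square root of F. Ratios of summed counts carry exact binomial intervals (95%), for counting error only. CPM uses TMM factors over the 9 libraries, and exon lengths come from the GENCODE annotation on GRCh37. The procedure was tested on simulated data of independent libraries, which held neither a pair as close as SW480-gRNA-B-all replicates 2 and 3 nor any pairing. Alternatives were RLE factors, other filters, 1 fit over 9 libraries, a replicate block, each replicate left out, the sum of SW480-gRNA-B-all replicates 2 and 3, no minimum fold, and DESeq2 1.42.0.

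The RNAs were isolated in triplicate, and separate cultures are not stated, so p-values measure the spread between these libraries, which may be technical. Same-numbered libraries of SW480-B and SW480 deviated together (correlations of deviations 0.299, 0.342 and 0.405), which was read as pairing. For SW480-gRNA-B-all, replicates 1 and 3 did so with both other lines (0.249 to 0.299). Replicate 2 did not (-0.035 with SW480 and -0.104 with SW480-B), so pairing by number cannot be decided there. The main tests used no block, and the replicate block was an alternative. The members, the pathway lists and the tests were chosen with earlier results of these data known. Named were all members, BASP1, up to 4 called genes per list, direction and comparison (largest change first), the 5 genes most correlated with PTGER2, and genes overlapping a member. Without the strand setting, reads of a gene and of its antisense partner cannot be told apart.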

Additional observations from a re-analysis of the deposited data

Results flagged for a closer look

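The levels of 2 members differed between the lines that express BASP1, which is a difference between the effects of both BASP1 lines against the same SW480 libraries. The log2 fold change of HPGD between SW480-gRNA-B-all and SW480-B was -2.29 (adjusted p = 0.0011, edgeR), and all 3 libraries of the former were lower. The log2 fold change of PTGS1 was 1.72 (adjusted p = 0.036, edgeR), and all 3 libraries were higher. The PTGS1 values rest on 119 and 33 counts, and this call was lost without any one of the 6 libraries (edgeR adjusted p 0.056 to 0.17) and when replicates 2 and 3 of the former line were added up (adjusted p = 0.10). The call of HPGD was kept in these fits. Groups of 3 libraries are too small for the check of single outlying values.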

How the results depend on the processing

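The number of genes called moved more with the libraries than the values of the members. For SW480-gRNA-B-all against SW480 it was 1055, with 2380 by DESeq2, 97 with SW480-gRNA-B-all replicates 2 and 3 as 1 sum, and 8 to 2659 when 1 library was left out (8 without replicate 2 and 2659 without replicate 3 of SW480). For SW480-gRNA-B-all against SW480-B it was 1059, with 654 in 1 fit over 9 libraries, 446 with the sum, and 420 to 1548 without 1 library (420 without replicate 3 of SW480-gRNA-B-all). For SW480-B against SW480 it was 216, with 735 without a filter, 143 with a filter of 1 CPM in 3 libraries, 452 in 1 fit over 9 libraries, 1096 by DESeq2, and 0 to 921 without 1 library (0 without replicate 1 or 2 of SW480-B). The causes were not tested.

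Of the members, the count called higher against SW480-B (1, PTGS1) was 0 with the 1 CPM filter, which removed the gene, 0 in 1 fit over 9 libraries (PTGS1 adjusted p = 0.10), 0 with the sum, and 0 to 0 without 1 library. Apart from PTGER2, HPGD was called lower there, and PTGS2 as well under no filter, by DESeq2 and without replicate 3 of SW480-B. The count called lower against SW480 was 0, and 0 to 1 without 1 library (HPGD, without replicate 1 of SW480). The count called higher in SW480-B than in SW480 was 1, PTGER2 itself, given as a description, and 0 to 1 without 1 library, with 0 without any SW480-B library or replicate 2 of SW480. The log2 fold change of PTGES3 against SW480 (0.03) changed sign with the sum (-0.030) and ranged from -0.18 to 0.32 without 1 library, never past the threshold. With the replicate number as a block, 1199, 1389 and 319 genes were called in the 3 comparisons, and no call of a tested member changed. Of the pathway calls, the block ended those of MGLL against SW480 (adjusted p = 0.054), GNAI1 against SW480-B (0.11) and SLCO3A1 between SW480-B and SW480 (0.056). The same-number correlations of SW480-gRNA-B-all were 0.299, -0.035 and 0.279 with SW480, and 0.249, -0.104 and 0.264 with SW480-B. Replicate 2 of SW480-gRNA-B-all went instead with replicate 3 of SW480 (0.298) and of SW480-B (0.335). Pairing by number therefore cannot be decided for SW480-gRNA-B-all. Of the 153 tested fold changes of members under the alternatives, 140 kept their direction and side of the threshold, 8 lost a call (all PTGS1), 1 gained one and 4 changed sign (all PTGES3 against SW480). Of the 106 given as a description, 2 changed sign (PTGES3 between SW480-B and SW480). Depth kept PTGER1 and PTGER3 out of every test, PTGS2 out of both tests of SW480-gRNA-B-all and PTGER2 out of that against SW480.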
